A study of Mus musculus with 12 samples.

Results

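The genes described here are 10 acyltransferases and lipins that build triglyceride from glycerol-3-phosphate in mouse liver: Gpam, Gpat3, Gpat4, Agpat2, Agpat3, Lpin1, Lpin2, Lpin3, Dgat1 and Dgat2. They were chosen by name, from the enzyme step each catalyses, among the 20143 genes of the table, with earlier results of these data known. Other genes of these steps, such as Agpat1, were placed in a separate list. All 10 passed the filter on low values. Liver RNA came from 12 mice: 6 labelled wild type (WT) and 6 labelled Hsd17b13-KO (KO), which lack the gene of a hepatocyte lipid droplet protein. Mice of both genotypes were 8 to 10 weeks old when they were put on CDAA-HFD, a high-fat diet that lacks choline and causes fatty and scarred liver, and stayed on it for 12 weeks. No chow-fed group is analysed here, and no source used here gives the strain, sex, litter or the cells in which the gene was deleted. Levels are CPM, in which the values of each library add up to 1000000, and differences are KO minus WT on the log2(CPM + 1) scale, which slightly understates changes of low genes. The word called is used for an adjusted p under 0.05.

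Triglyceride is made in 4 steps. Glycerol-3-phosphate acyltransferases (GPATs) add a fatty acid to glycerol-3-phosphate and acylglycerolphosphate acyltransferases (AGPATs) add another, giving phosphatidate. Lipins remove its phosphate to give diacylglycerol, and diacylglycerol acyltransferases (DGATs) add the last fatty acid. In liver the product is stored in lipid droplets or secreted in lipoproteins, and several lipins also act in the nucleus as coregulators of transcription.

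The genotype labels were checked first. Hsd17b13 lay between 315 and 393 CPM in WT mice and between 0.956 and 1.40 CPM in KO mice, a log2 difference of -7.32. Read from the common step of the low values, library depths ran from 46.3 to 77.9 counts per CPM, and at 10 CPM, the lowest mean tested, counting error was at most 4.65%. Hepatocyte markers (8 of 8 in the table) summed to 66770 to 85972 CPM in WT and 66310 to 83302 CPM in KO. The 15 genes of the mitochondrial genome took 2.69% to 4.92% of the values per library. KO mice 1 and 3 stood apart from the other KO mice at Gm8730, with 117 and 119 CPM against 185 to 206 CPM, so the difference of each of the 10 genes whose value moved by over 1.5 times or changed sign without them is also given without them, as is that of Gpat3. Over all 9186 genes tested, 10 were called higher in KO and 4 lower by limma. Under median-of-ratios rescaling the split was 11 higher and 10 lower, and under quantile normalization 11 higher and 8 lower.

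Of the triglyceride synthesis genes, 1 of 10, Gpat3, rose in KO liver and 0 of 10 fell by limma with Benjamini-Hochberg adjustment. Over all tested genes 0.109% were called higher and 0.0435% lower. At an unadjusted p under 0.05 the count was also 1 of 10, against 9.8% of all tested genes. The groups did not overlap for Gpat3 alone, where all 6 KO mice lay above all 6 WT mice, as they did for 0.359% of tested genes. KO mice lay wholly below WT mice at 0 of the 10 genes, against 0.533%. The median difference was 0.06 over the 10 genes and -0.01 over all tested genes, and 8 of 10 were positive, against 45.6% of all tested genes.

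**Figure D1:**
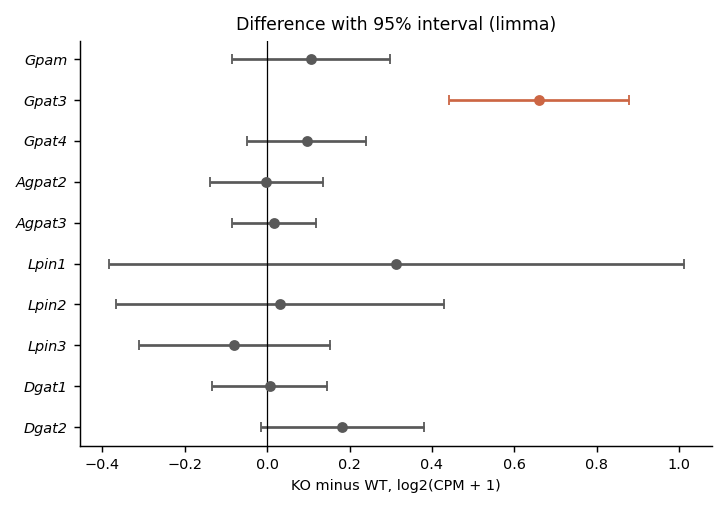
Difference in level between genotypes (KO minus WT, log2(CPM + 1), x axis) for each of the 10 genes (y axis), with bars for the 95% interval from limma. The interval of Gpat3, 0.44 to 0.88, lies above 0, and those of the other 9 genes include 0.

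Promoter windows from RefSeq (GRCm38.p6) reach from 250 bases before to 50 bases after the start in RefSeq, and 7 of the 10 genes had one. The gene spans given with the levels are those of GENCODE, whose outermost starts can differ: the RefSeq start lies 516 bases downstream of the GENCODE start for Gpat3, 972 bases downstream for Lpin2 and at the same base for Lpin1. Shown are the windows of Gpat3, the gene that rose, and of Lpin1 and Lpin2, which varied most between mice. Each is given 5′ to 3′ on the gene's own strand, and capitals mark the E-box CACGTG, a site for basic helix-loop-helix factors such as the clock, SREBP and USF proteins.
Gpat3, chr5:100845979-100846278, plus strand: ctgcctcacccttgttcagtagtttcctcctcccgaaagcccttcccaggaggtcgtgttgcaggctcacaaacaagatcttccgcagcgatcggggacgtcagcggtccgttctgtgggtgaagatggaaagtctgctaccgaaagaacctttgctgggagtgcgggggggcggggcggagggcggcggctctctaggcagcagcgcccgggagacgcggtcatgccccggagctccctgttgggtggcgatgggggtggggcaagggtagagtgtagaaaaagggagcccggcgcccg
Lpin1, chr12:16610917-16611216, minus strand: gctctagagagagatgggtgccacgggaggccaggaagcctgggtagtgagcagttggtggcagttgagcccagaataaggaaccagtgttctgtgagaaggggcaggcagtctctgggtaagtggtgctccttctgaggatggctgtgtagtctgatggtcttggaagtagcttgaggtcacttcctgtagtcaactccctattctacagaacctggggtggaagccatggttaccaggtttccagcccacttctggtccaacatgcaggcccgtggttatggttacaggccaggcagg
Lpin2, chr17:71183282-71183581, plus strand: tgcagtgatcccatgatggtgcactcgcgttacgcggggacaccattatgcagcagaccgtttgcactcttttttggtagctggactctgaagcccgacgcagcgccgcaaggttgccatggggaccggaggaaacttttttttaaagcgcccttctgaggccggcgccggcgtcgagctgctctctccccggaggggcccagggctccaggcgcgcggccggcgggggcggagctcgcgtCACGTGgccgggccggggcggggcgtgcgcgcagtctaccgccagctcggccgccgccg

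The search covered both strands. The Gpat3 window held 0 E-boxes and 3 copies of the GC box GGGCGG, and 64.3% of its bases were G or C. The Lpin1 window held neither motif and was 55.3% G or C. The Lpin2 window held 1 E-box, 9 bases before the RefSeq start, and 2 GC boxes, and was 68.7% G or C. Neither of these motifs overlaps the other. The Lpin3 window, searched but not printed, held 1 E-box, 22 bases after the RefSeq start, and 0 GC boxes, and was 50% G or C. Of 32817 mouse windows of the same length, 7.15% hold CACGTG and 35.6% hold GGGCGG. The cyclic AMP element TGACGTCA was in 0 of these windows and in 1.79% of all. These matches describe letters and no binding was measured.

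The GPAT step was the one in which a gene changed. Gpat3 (ENSMUSG00000029314, protein coding, plus strand, mm10 chr5:100845713-100899102) encodes a GPAT of the endoplasmic reticulum. Its level in WT mice 1 to 6 was 21.6, 29.4, 25.0, 31.8, 21.6 and 30.3 CPM. In KO mice 1 to 6 it was 44.3, 37.5, 43.0, 42.5, 47.8 and 38.6 CPM. The lowest KO mouse, at 37.5 CPM, was above the highest WT mouse, at 31.8 CPM. The mean rose from 26.6 ± 4.47 CPM (SD, n = 6) to 42.3 ± 3.80 CPM (SD, n = 6), a ratio of 1.59. The log2 difference was 0.66 with a standard error of 0.10, and limma gave an adjusted p of 0.0133 over all 9186 genes. An exact two-sided permutation test gave p = 0.00216, the smallest that 924 assignments of mice allow. Any gene whose groups do not overlap gets this p, which is unadjusted, so it only restates the separation. The call was lost when the mouse number was taken as a block (adjusted p = 0.114 by limma, the difference unchanged at 0.66) and without WT mouse 3 (adjusted p = 0.0523, difference 0.65). Without KO mice 1 and 3 the difference was 0.64 with an adjusted p of 0.0343 by limma.

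Gpam (ENSMUSG00000024978, minus strand, chr19:55067268-55127238) encodes the mitochondrial GPAT. In WT mice it had a lowest, median and highest level of 226, 234 and 260 CPM, and in KO mice of 207, 258 and 305 CPM. KO mice spread on both sides of the WT range, with SDs of 38.7 CPM against 13.5 CPM, and the groups overlapped. The difference was 0.11 with a 95% interval of -0.09 to 0.30 and an adjusted p of 0.785 by limma. Without KO mice 1 and 3 it was 0.23 (adjusted p = 0.200 by limma), and with 1 library left out it ran from 0.06 to 0.17. Gpat4 (ENSMUSG00000031545, minus strand, chr8:23171265-23208346), a GPAT of the endoplasmic reticulum that can move to lipid droplets, had 86.5, 97.1 and 106 CPM in WT and 92.2, 103 and 117 CPM in KO. The groups overlapped at Gpat4, and the difference of 0.10 (95% interval -0.05 to 0.24) did not pass, with an adjusted p of 0.725 by limma. Without KO mice 1 and 3 it was 0.06.

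The ratio of Gpat3 to each of the other GPAT genes within a library is given as a description, with no test, since Gpat3 was taken up for its rise and the ratios restate its difference. The log2 ratio of Gpat3 to Gpat4 was -1.84 ± 0.30 in WT and -1.28 ± 0.16 in KO (SD, n = 6 each). The log2 ratio of Gpat3 to Gpam was -3.13 ± 0.28 in WT and -2.58 ± 0.27 in KO (SD, n = 6 each).

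**Figure D2:**
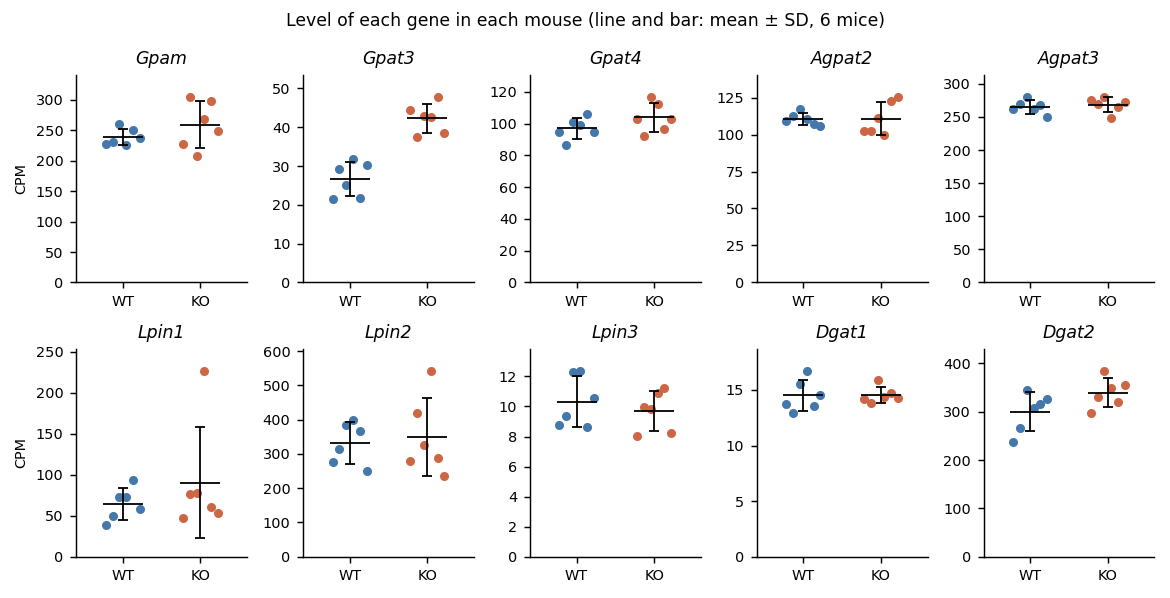
Level of each of the 10 genes (CPM, y axis from 0) in each WT and KO mouse (x axis), with a line for the mean and a bar for the SD of 6 mice. Gpat3 is the panel in which the groups are apart (21.6 to 31.8 CPM in WT, 37.5 to 47.8 CPM in KO), and 1 KO mouse lies far above the others for Lpin1, at 226 CPM.

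Gpat3 shares sequence with 2 other annotated transcripts in the table. The antisense transcript 4930458D05Rik lies on the opposite strand over 1052 bases of Gpat3 exons, 30.0% of them, and its annotated span covers the whole promoter window printed for Gpat3. Its level was 3.01 ± 0.930 CPM in WT and 1.28 ± 0.330 CPM in KO (SD, n = 6 each), a difference of -0.79 with an adjusted p of 0.0561 by limma in the fit with no filter. No source used here gives the strand setting of the counting, so reads over the shared bases may not be separable. Summed, Gpat3 and its antisense transcript had 29.6 ± 5.33 CPM in WT and 43.6 ± 4.06 CPM in KO (SD, n = 6 each). Gm42987, on the same strand as Gpat3, shares 7.40% of the exon bases of Gpat3. The only match to another transcript at 95% identity or more over at least 300 bases was this antisense overlap.

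Gpat3 lies on the same chromosome as the deleted gene, 3.11 Mb from it. The 3 nearest tested genes on one side were Coq2 (coenzyme Q synthesis), Hpse (heparanase) and Mrps18c (a mitochondrial ribosome subunit). Those on the other side were Wdfy3 (an autophagy adaptor), Arhgap24 and Aff1 (a transcription elongation factor). Of these 6 neighbours 0 were called by limma and 0 had an unadjusted p under 0.05; their differences ran from -0.17 at Arhgap24 to 0.02 at Coq2. Within 5 Mb of Gpat3 there were 32 tested genes besides Gpat3 and Hsd17b13. Of these 1 was called, against 0.152% of all tested genes, and 13 (40.6%) had an unadjusted p under 0.05, 10 higher and 3 lower, against 9.8% of all tested genes. The 13, named after their values were seen, include 6 guanylate-binding protein (Gbp) genes, Plac8, 0.29 Mb from Gpat3 with a difference of 0.41, Rasgef1b (0.38) and the matrix protein gene Spp1 (-1.02). The called gene, Gbp11, an interferon-induced GTPase gene, had 10.1 CPM in WT and 25.8 CPM in KO, a difference of 1.23. It belongs to a family of closely similar genes, so its counts are uncertain.

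**Figure D3:**
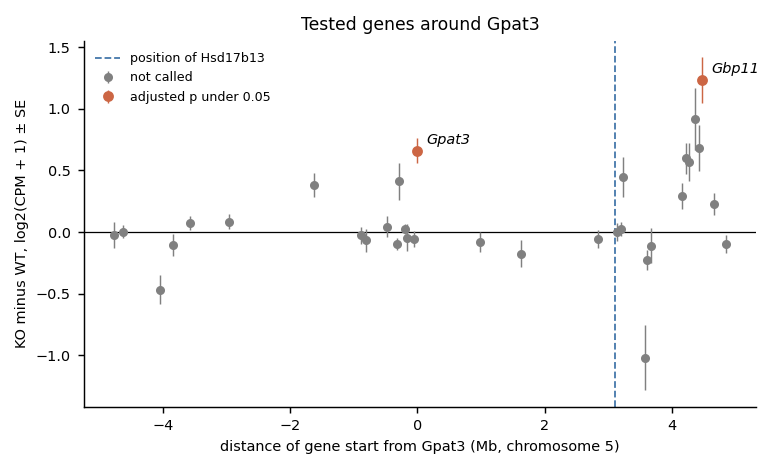
Difference between genotypes (KO minus WT, log2(CPM + 1) ± SE from limma, y axis) for tested genes by the distance of their start from Gpat3 (Mb, x axis). The dashed line marks Hsd17b13 at 3.11 Mb. Gpat3 stands at 0.66 and its 3 nearest tested genes on each side at -0.17 to 0.02. Plac8, at -0.29 Mb, stands at 0.41, Spp1 at -1.02 and the called gene Gbp11 at 1.23.

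The 5 tested genes whose log2 levels followed Gpat3 most closely over the 12 mice were Clec1b (r = 0.87), Gm8730 (0.87), Psmb2 (0.86), Rasgef1b (0.86) and Gm9625 (0.86). These correlations span both genotypes, so a shared difference between the groups enters them, and they are a description. Gm8730 and Gm9625, predicted genes whose sequence copies were not analysed here, were called higher, with differences of 2.49 and 1.18. Clec1b, a lectin gene of Kupffer cells and other cells, had 15.1 ± 1.97 CPM in WT and 19.8 ± 2.25 CPM in KO (SD, n = 6 each; adjusted p = 0.153 by limma). Psmb2 is a proteasome subunit, and Rasgef1b, a Ras exchange factor gene on the same chromosome, had a difference of 0.38 (adjusted p = 0.152 by limma).

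Markers of other liver cells are given beside the Gpat3 result because several moved with genotype. Recruited macrophage markers (7 of 7 in the table) summed to 1492 to 2822 CPM in WT and 978 to 1457 CPM in KO, so the sums did not overlap. These sums include Spp1, one of the genes within 5 Mb of Gpat3, with means of 384 CPM in WT and 182 CPM in KO. Kupffer cell markers (5 of 5) summed to 182 to 322 CPM in WT and 304 to 469 CPM in KO, and cholangiocyte markers (4 of 4) to 41.1 to 93.0 CPM and 19.9 to 37.6 CPM. Stellate cell markers (6 of 6) summed to 804 to 1267 CPM in WT and 717 to 895 CPM in KO. The 6 did not move together, as 2 had differences above 0. Endothelial markers (5 of 5) summed to 217 to 277 CPM in WT and 220 to 316 CPM in KO. Markers of T cells (5 of 5), B cells (4 of 4) and neutrophils (4 of 4) each summed to under 40 CPM in every library. Of 4 pancreas markers, 1 was in the table, Cela1, at 5.42 to 224 CPM in WT and 4.99 to 94.4 CPM in KO. Of 4 adipocyte and 4 skeletal muscle markers, 0 were in the table. Over all genes tested with no filter, 0 markers of any list were called by limma. At an unadjusted p under 0.05 there were 6 recruited macrophage, 3 Kupffer and 4 cholangiocyte markers. There were also 5 stellate, 2 endothelial and 1 T cell markers. The share of all genes in that fit is not given here, and in the fit with the filter it was 9.8%. Differences were above 0 at 0 recruited macrophage, 5 Kupffer, 0 cholangiocyte, 5 endothelial and 5 T cell markers. They were also above 0 at 7 of 8 hepatocyte, 4 of 4 B cell and 4 of 4 neutrophil markers. In the fit with the filter 45.6% of all tested genes had a difference above 0. The part of these cells in the Gpat3 difference was not tested, and in bulk liver more cells of a type and more RNA per cell cannot be told apart.

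Neither Agpat2 nor Agpat3 passed the test. Agpat2 (ENSMUSG00000026922, minus strand, chr2:26593057-26604417), the isoform whose loss causes lipodystrophy, had 106, 110 and 117 CPM in WT and 99.7, 107 and 125 CPM in KO (lowest, median and highest). The KO mice covered the whole WT range and more. Its difference was -0.0019 (95% interval -0.14 to 0.13; adjusted p = 0.996 by limma), and 0.020 without KO mice 1 and 3. Agpat2 shares 64 exon bases with Egfl7 on the opposite strand. Agpat3 (ENSMUSG00000001211, minus strand, chr10:78269178-78352489), an isoform that also supplies phospholipid synthesis, had 249, 265 and 280 CPM in WT and 248, 271 and 280 CPM in KO. The 2 ranges nearly coincided, and the difference was 0.02 (95% interval -0.08 to 0.12; adjusted p = 0.953 by limma), and -0.0085 without KO mice 1 and 3. Within groups Agpat3 varied least of the 10 genes, with an SD of 0.06 on the log2 scale, at percentile 2.73 of tested genes.

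The lipins varied most. Lpin1 (ENSMUSG00000020593, minus strand, chr12:16535669-16610966), the lipin known for its induction by fasting and glucocorticoids, had 38.8, 50.03, 72.8, 72.4, 94.1 and 58.0 CPM in WT mice 1 to 6. In KO mice 1 to 6 it had 47.8, 76.0, 77.9, 226, 60.9 and 53.4 CPM. KO mouse 4 stood at 226 CPM, above every other mouse, and the other 5 KO mice lay within the WT range. The means were 64.4 ± 19.6 CPM and 90.4 ± 67.6 CPM (SD, n = 6 each), and the difference was 0.31 (95% interval -0.38 to 1.01; adjusted p = 0.830 by limma). Without KO mouse 4 the difference was 0.01, and without KO mice 1 and 3 it was 0.48 (adjusted p = 0.691 by limma).

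Lpin2 (ENSMUSG00000024052, plus strand, chr17:71182560-71249817), the main lipin of liver, had 251, 340 and 400 CPM in WT and 234, 307 and 542 CPM in KO. KO mouse 4 was again the highest of all mice, and the groups overlapped. The difference was 0.03 (95% interval -0.37 to 0.43; adjusted p = 0.977 by limma). It was -0.11 without KO mouse 4 and 0.10 without KO mice 1 and 3. Lpin3 (ENSMUSG00000027412, plus strand, chr2:160880670-160906002), the least studied lipin, had 8.65, 9.96 and 12.4 CPM in WT and 8.06, 9.90 and 11.2 CPM in KO. The groups overlapped at Lpin3, with a difference of -0.08 (95% interval -0.31 to 0.15; adjusted p = 0.886 by limma), and -0.03 without KO mice 1 and 3. The SD within groups was 0.65 on the log2 scale for Lpin1 and 0.36 for Lpin2, at percentiles 99.4 and 96.1 of tested genes, where the median gene had 0.14.

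With the group means removed, Lpin1 and Lpin2 deviated together over the 12 mice (Pearson r = 0.84, permutation p = 0.00177 and adjusted 0.0796 over 45 pairs; Spearman coefficient = 0.80, permutation p = 0.00423 and adjusted 0.190). Without the 2 mice farthest from the median, KO mouse 4 and WT mouse 5, r was 0.74. It was 0.71 within the 6 WT mice and 0.89 within the 6 KO mice. Of the 45 pairs 0 passed the threshold after adjustment, and the next pair, Lpin3 with Dgat1, had r = 0.67 (permutation p = 0.0314, adjusted 0.594) and a Spearman coefficient of 0.69.

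**Figure D4:**
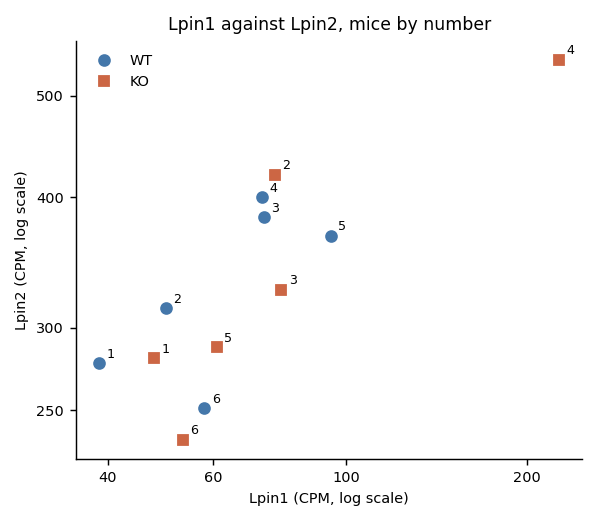
Lpin1 (x axis) against Lpin2 (y axis), both in CPM on log scales, with 1 point per mouse marked by genotype and mouse number. KO mouse 4 lies at the upper right, at 226 CPM of Lpin1 and 542 CPM of Lpin2, and r of the deviations was 0.71 within WT and 0.89 within KO.

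The 5 genes whose deviations followed Lpin1 most closely were Adcy9 (r = 0.95), an adenylyl cyclase, Dedd2 (0.95), Gm26684 (0.91), Npc1 (0.91), a lysosomal cholesterol transporter, and Gucd1 (0.91). Adcy9 had 42.6 ± 5.57 CPM in WT and 47.1 ± 9.79 CPM in KO (SD, n = 6 each), with 66.3 CPM in KO mouse 4. None of these 5 was called, and their differences ran from 0.02 to 0.13. Without KO mouse 4, the difference was 0.03 at Adcy9 (0.13 with all mice) and 0.04 at Dedd2 (0.13 with all mice), and Gm26684 (-0.09), Gucd1 (-0.018) and Npc1 (-0.019) were below 0.

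Neither DGAT gene passed the test. Dgat2 (ENSMUSG00000030747, minus strand, chr7:99153658-99182719), the DGAT tied to newly made fatty acids, had 238, 313 and 346 CPM in WT and 298, 340 and 384 CPM in KO. The KO mice lay toward the upper end of the WT range and beyond it, and the groups overlapped. Means were 300.5 ± 40.3 CPM and 340 ± 30.4 CPM (SD, n = 6 each), and the difference was 0.18 (95% interval -0.01 to 0.38; adjusted p = 0.557 by limma). Dgat1 (ENSMUSG00000022555, minus strand, chr15:76502015-76511953), the DGAT unrelated in sequence that re-esterifies fatty acids, had 12.9, 14.2 and 16.7 CPM in WT and 13.8, 14.3 and 15.9 CPM in KO. The KO range lay inside the WT range, and the difference was 0.01 (95% interval -0.13 to 0.15; adjusted p = 0.986 by limma), and -0.017 without KO mice 1 and 3.

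Compared per kilobase of exon, Dgat2 had the highest level of the 10 genes, 97.5 ± 13.1 CPM per kb in WT and 110 ± 9.85 in KO (SD, n = 6 each). In WT it was followed by Agpat2 (51.8 CPM per kb), Gpam (35.8), Agpat3 (34.0), Lpin2 (27.1), Gpat4 (14.5), Gpat3 (7.60), Lpin1 (6.66), Dgat1 (4.75) and Lpin3 (2.80). The order of the group means was the same in KO, with Gpat3 at 12.1 and Lpin1 at 9.35 CPM per kb. Among WT mice the ranges of neighbours overlapped for Gpam with Agpat3, Agpat3 with Lpin2, Gpat3 with Lpin1, and Lpin1 with Dgat1. Taken per kilobase of the median coding transcript, Agpat3 came the third, Lpin2 the fourth and Gpam the fifth, and Lpin1 passed Gpat3.

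Among the 10 genes, the isoform with the highest mean within each enzyme step was the same in both genotypes. The sums below are over the 10 genes only, so other genes of a step, such as Agpat1, are left out. Gpat3 made up 13.1% ± 2.27 of the summed GPAT level per kb in WT and 18.2% ± 1.95 in KO (SD, n = 6 each), with ranges of 10.4% to 15.7% and 15.2% to 20.4% that overlapped. Gpam made up 61.8% and 58.2%, and Gpat4 25.1% and 23.6%. The summed GPAT level was 57.9 ± 2.42 CPM per kb in WT and 66.5 ± 4.89 in KO (SD, n = 6 each). Lpin2 made up 74.2% of the lipin level in WT and 71.6% in KO, and Lpin1 18.0% ± 3.36 and 21.4% ± 6.06, with 33.1% in KO mouse 4. Dgat2 made up 95.3% and 95.8% of the DGAT level, and Agpat2 60.4% and 60.03% of the summed Agpat2 and Agpat3 level. Per kilobase of the median coding transcript, Gpat3 made up 8.59% in WT and 12.2% in KO, and Agpat2 and Agpat3 were nearly level, at 50.7% and 49.3% in WT.

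**Figure D5:**
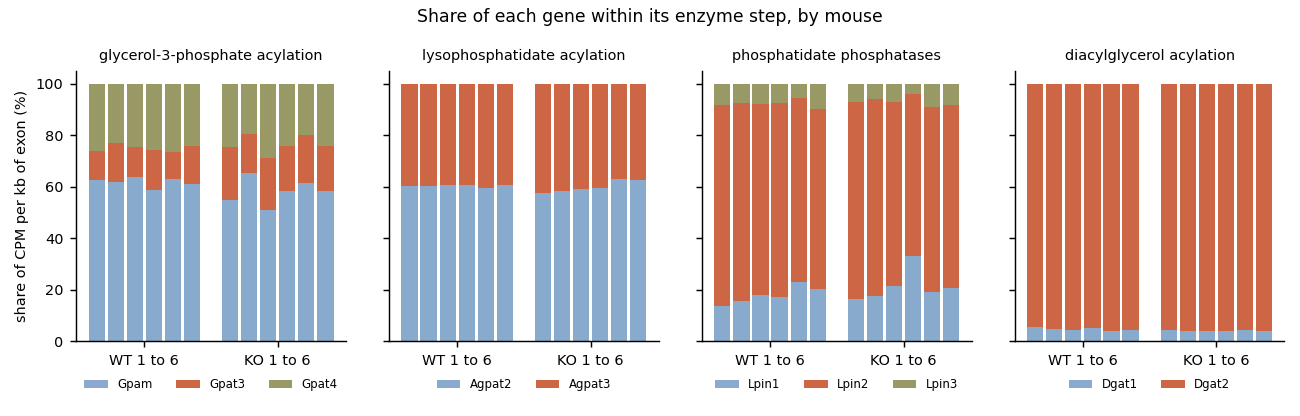
Share of each gene (%, y axis) in the summed level per kb of exon of those of the 10 genes in its enzyme step. Bars are stacked for each of WT mice 1 to 6 and KO mice 1 to 6 (x axis), 1 panel per step. Gpat3 takes 10.4% to 15.7% in WT and 15.2% to 20.4% in KO, and Lpin1 takes 33.1% in KO mouse 4.

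Of 97 other tested genes of the pathway and its regulation, in 9 lists, 0 were called in either direction by limma. At an unadjusted p under 0.05 there were 15, or 15.5%, against 9.8% of all tested genes, and 7 of those 15 were in the list of clock and glucocorticoid genes. The median difference over the 97 was 0.04, against -0.01 over all tested genes.

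Upstream of the GPATs, 0 of 11 genes that supply glycerol-3-phosphate and acyl-CoA had an unadjusted p under 0.05, and their median difference was 0.04. The smallest p values there belonged to Aqp9, the hepatocyte glycerol channel (327 ± 46.8 CPM in WT, 368 ± 21.8 CPM in KO), Gpd1l (difference 0.10) and Slc27a5, a bile acid and fatty acid CoA ligase (difference 0.13). Of the other glycerolipid and sterol acyltransferases 5 were tested, with a median difference of -0.02. Soat1, which esterifies cholesterol, had 59.0 ± 9.56 CPM in WT and 49.6 ± 6.29 CPM in KO (SD, n = 6 each; adjusted p = 0.504 by limma). The AGPAT-family genes Lclat1 and Agpat1 differed by 0.07 and -0.10.

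Among lysophospholipid acyltransferases 4 were tested, with a median of 0.03: Lpgat1 differed by 0.21 (adjusted p = 0.498 by limma), Mboat7, the lysophosphatidylinositol acyltransferase, by -0.05 and Lpcat2 by 0.05. The branches that take phosphatidate or diacylglycerol elsewhere had 13 tested genes and a median of -0.03. There, phospholipase D1 (Pld1) had 33.9 ± 6.16 CPM in WT and 26.1 ± 3.49 CPM in KO (SD, n = 6 each; adjusted p = 0.261 by limma), diacylglycerol kinase Dgkd differed by -0.11 and choline phosphotransferase Chpt1 by 0.20. For lipin regulation and droplet formation 5 genes were tested, with a median of 0.06. The fat storage gene Fitm1 had 9.41 ± 1.51 CPM in WT and 11.9 ± 1.31 CPM in KO (SD, n = 6 each; adjusted p = 0.278 by limma), and Fitm2 and the seipin gene Bscl2 differed by 0.10 and 0.06.

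Transcription regulators of the pathway (20 tested, median 0.07) included Pparg, at 20.1 ± 1.08 CPM in WT and 22.3 ± 1.17 CPM in KO (SD, n = 6 each; adjusted p = 0.328 by limma). Ppara differed by 0.19 and Cebpa by 0.23, and neither passed. Targets of insulin and SREBP1c (12 tested, median 0.05) included the lipogenic genes Thrsp, with a difference of 0.96 (adjusted p = 0.483 by limma), Acacb (0.39) and Acly (0.10). Without KO mice 1 and 3 these were 1.501 and 0.60 (adjusted p = 0.0726 each by limma) and 0.20 (adjusted p = 0.327 by limma). Fasting and PPARα targets (13 tested) had a median of -0.19, with 0 at an unadjusted p under 0.05. Of these, the pyruvate dehydrogenase kinase gene Pdk4 differed by -0.70 (adjusted p = 0.536 by limma), the lipid droplet coat gene Plin2 by -0.19 and Vnn1 by 0.16.

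Clock and glucocorticoid genes were included because Lpin1 follows both signals. Of 14 tested, 7 (50%) had an unadjusted p under 0.05, against 9.8% of all tested genes. Of the 14, 0 were called, and the median difference was 0.18. Fkbp5, a glucocorticoid target, had 27.5 ± 4.63 CPM in WT and 37.9 ± 5.77 CPM in KO (SD, n = 6 each; adjusted p = 0.170 by limma). The glucocorticoid-responsive genes Tsc22d3, Tat and Pck1, named after their values were seen, differed by 0.07, 0.14 and 0.16. G6pc of the same list, named likewise, differed by -0.64 (adjusted p = 0.451 by limma). The clock activator Arntl had 16.7 ± 6.03 CPM and 9.48 ± 3.16 CPM, and the clock output gene Dbp 32.1 ± 26.3 CPM and 63.8 ± 23.6 CPM. Their differences were -0.73 (adjusted p = 0.286 by limma) and 1.39 (adjusted p = 0.358 by limma). No source used here gives the time of day at which each mouse was killed, and its part in the lipin levels was not tested.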

How the data were processed

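Liver RNA of 12 mice was sequenced, 1 library per mouse. Per the labels' protocols, libraries were directional and were depleted of globin and ribosomal RNA, although the molecule label names polyA RNA. The submitters' processing notes list STAR 2.7.3a, Partek 10.0, DESeq2 1.14.1 and the build mm10, and say nothing of what each did. How reads were counted, with which annotation and on which strand, was not given in the sources used here. CPM is the unit of the values the authors deposited, and each column sums to 1000000. Of the values under 1.5 CPM, 70.4% to 73.3% were whole multiples of 1 step per library to within 0.02 steps, which does not give whole reads for nearly all genes, and counts were not modelled. That step gave the depths in the report. Counting errors cover counting only, since PCR copies of 1 molecule were not marked.

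IDs were matched to GENCODE M21 on mm10 (20055 of 20143; the other 88 hold 9.59% of the values). The genotypes were compared with limma 3.58.1 (R 4.3.3) on log2(CPM + 1) for the 9186 genes whose mean reached 10 CPM, two-sided, with a mean trend and Benjamini-Hochberg adjustment over all of them. The limma step was tested on simulated data. Lists were described by counts and medians. Pairs of the 10 genes were compared by 100000 permutations within groups. Levels between genes were divided by the union of exons. Sequence copies were sought with BLASTN 2.17.0. Each library differed from the others of its group by more than counting noise (median chi-square of 5.20 to 20.5 over genes, against 0.455). The limma p-values set the difference between genotypes against the spread between mice within groups. The titles number the mice within a genotype and name no litter or cage. Any difference of litter or cage between the genotypes thus cannot be told apart from that of genotype.

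The 10 genes and the lists were chosen with earlier results of these data known. Named are the 10 genes, Hsd17b13, of each list the 3 genes with the smallest p, the 3 tested genes on each side of Gpat3, and the 5 genes most like Gpat3 (log2 levels over 12 mice) and Lpin1 (deviations from group means), plus those the text says were chosen after their values were seen. Alternatives were other pseudocounts, filters, scalings, a fit without the trend, library weights, the mouse number as a block, each library left out, and KO mice 1 and 3 left out. The ratios of GPAT genes and the median coding transcript length were added after seeing the data.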

Additional observations from a re-analysis of the deposited data

Results flagged for a closer look

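In groups of 6 mice, a value was singled out when its gap to the nearest other mouse exceeded 0.625 of the group's range (Dixon's 95% critical value). Of 110 groups of named genes tested, 7 met this, and chance alone gives about 1 in 20. Lpin1 was 226 CPM in KO mouse 4, against 47.8 to 77.9 CPM in the other KO mice. In the same mouse Adcy9 was 66.3 CPM, against 39.4 to 46.7 CPM, and Gm26684 was 17.5 CPM, against 8.75 to 11.5 CPM; both were chosen for their likeness to Lpin1. WT mouse 5 had 67.3 CPM of Lclat1, against 54.2 to 58.0 CPM. WT mouse 1 had 12.0 CPM of Lpcat2, against 9.37 to 10.1 CPM, and 18.3 CPM of Arhgap24, against 11.1 to 13.01 CPM. WT mouse 4 had 37.8 CPM of Rasgef1b, against 24.1 to 28.2 CPM.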

How the results depend on the processing

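Gpat3 was called by limma in 20 of 22 other fits, with differences of 0.52 to 0.71 and adjusted p of 0.00275 to 0.114; the exceptions were the replicate block (0.66, adjusted p = 0.114) and the fit without WT mouse 3 (0.65, adjusted p = 0.0523). It gave no value at a mean of at least 100 CPM. The count of triglyceride synthesis genes called higher, 1, was thus 0 at that mean, 0 with the replicate block and 0 to 1 with a library left out, and the count called lower was 0 in every fit run. The other 9 genes gave 204 values, 0 of them called, with a lowest adjusted p of 0.200, and 21 had the opposite sign. List genes called were 0 in every fit run. Over all genes, 10 were called higher and 4 lower. These became 16 and 15 where means reached 1 CPM, 19 and 16 with library weights, and 76 and 13 without KO mice 1 and 3. The count higher was 1 at a mean of at least 100 CPM. The count lower was 8 under quantile normalization, 10 under median-of-ratios rescaling and 16 with no filter. Leaving out a library gave 7 to 19 higher and 2 to 6 lower. With the replicate block 7 were higher and 4 lower. The cause of these moves was not tested.

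Same-numbered WT and KO mice had correlations of deviations of 0.36, 0.16, -0.07, 0.15, -0.51 and 0.39. Of 6 WT mice, 2 matched their own number best. So few values cannot show whether same-numbered mice shared a litter, cage or processing order, and the titles name none. Signs near 0 turned as follows. Agpat2 was 0.031 under median-of-ratios rescaling, 0.0082 with library weights, 0.020 without KO mice 1 and 3 and -0.039 to 0.027 with a library left out. Agpat3 was -0.014 under quantile normalization, -0.0085 without KO mice 1 and 3 and -0.00080 to 0.040 with a library left out. Dgat1 was -0.017 without KO mice 1 and 3 and -0.025 to 0.045 with a library left out. Lpin2 was -0.0069 under quantile normalization and -0.11 to 0.13 with a library left out. With a library left out, Gm26684 ran from -0.093 to 0.091, Gucd1 from -0.018 to 0.050, Npc1 from -0.019 to 0.070 and Hpse from -0.10 to 0.049. Rasgef1b was called without WT mouse 4 (0.47, adjusted p = 0.00823 by limma). Depth limits little here: counting error at 10 CPM was at most 4.65%.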

Other observations

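KO mouse 4, looked at after its Lpin1 level was seen, was the highest of the 12 mice for 5 of 14 tested clock and glucocorticoid genes (35.7%), as it was for 9.08% of all tested genes. These were the glucocorticoid-responsive genes Fkbp5 (47.3 CPM, against at most 39.7 in the other mice), Tsc22d3 (66.4 against at most 52.0), Tat (993 against at most 892) and Pck1 (2628 against at most 2142), and the clock repressor Nr1d2 (127 against at most 119). It was also the highest for 4 of 20 tested transcription regulators (20%), against 9.08% of all tested genes. They were Mlxipl, the carbohydrate-response factor (225 CPM against at most 200.1), Ppargc1a, Ppargc1b and Hnf4a.

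The same mouse was the lowest of the 12 for 7 of 13 fasting and PPARα targets (53.8%), as it was for 7.02% of all tested genes. Among them were Plin2 (459 CPM, against at least 551 in the other mice), the ω-hydroxylase genes Cyp4a10 (69.6 against at least 84.8) and Cyp4a14 (67.7 against at least 74.2), the peroxisomal enzyme gene Ehhadh (209 against at least 234) and the hormone gene Fgf21 (11.3 against at least 14.4). Among the 10 triglyceride synthesis genes it was the lowest for 2 (20%, against 7.02% of all tested genes), Agpat2 (99.7 CPM) and Agpat3 (248 CPM). It was the highest for 2 of the 10, Lpin1 and Lpin2. These are values of 1 mouse and no test was made.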
